A study of Mus musculus with 12 samples.

Results

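The nuclear-encoded subunits of the mitochondrial respiratory chain are the proteins of complexes I to IV and of ATP synthase (complex V) whose genes lie on the chromosomes and not on the mitochondrial genome. Members were taken by symbol from the protein-coding genes of the count table: the 4 succinate dehydrogenase genes, symbols opening with Nduf, then one of the letters a, b, c, s and v and then a digit, and symbols opening with Uqcr, with Cox and a digit from 4 to 8, or with Atp5. This gave 88 gene records with 87 symbols, since Atp5o stands in the table under 2 identifiers, of 57490 genes in all. Complex I holds 37 of them, complex II 4, complex III 8, complex IV 21 and complex V 18, with Ndufa4 and its paralog Ndufa4l2 placed in complex IV, of which Ndufa4 is a subunit. The symbols leave out cytochrome c1 (Cyc1), the acyl carrier protein Ndufab1, the ATP synthase inhibitor Atpif1 and the 13 subunits made from the mitochondrial genome, and they take in Cox5b-ps and Ndufb11b, which the table gives as protein-coding.

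Messenger RNA, enriched with oligo(dT) beads, was sequenced from the kidneys of 12 male mice aged 13 weeks, 4 in each of 3 groups, and counted per gene. Ctrl mice were db/+ heterozygotes on the BKS background (labelled db/m, with random blood glucose under 11.1 mmol/L), Model mice were diabetic db/db animals of the strain BKS.Cg-Dock7m +/+ Leprdb/JNju, chosen at a glucose of 16.7 mmol/L or more, and YHY mice were db/db animals given the water extract of Yiqi Huoxue Yangyin Decoction, an herbal formula. The extract (6.24 g/mL) was given by gavage once daily for 4 weeks, 50 µL for each 10 g the mouse weighed, and Ctrl and Model mice received the same volume of purified water. The db allele, a defect of the leptin receptor, is in every cell of the body, so an effect inside the kidney cannot be told apart from whole-body diabetes and obesity, and Ctrl mice carry 1 copy of it. The sample labels name the tissue whole kidney, while the series design names renal cortex.

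Total counts were 33276634, 29632718, 33236670 and 32677732 in Ctrl mice 1 to 4, 29784346, 26356745, 26095074 and 24415658 in Model mice 1 to 4 and 25310437, 25149764, 26187322 and 29698342 in YHY mice 1 to 4.

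Complexes I and II pass electrons from NADH and succinate to ubiquinone, complex III hands them to cytochrome c, complex IV gives them to oxygen, and complex V uses the proton gradient built on the way to make ATP.

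Levels are given as CPM, counts scaled by library size and by TMM factors, which are set from the bulk of genes and not from the few most abundant. Levels of different members are compared only as FPKM, which is the same CPM per kilobase of gene length. Differences are log2 fold changes with their standard error (SE) from 1 edgeR quasi-likelihood fit of all 12 mice, tested 2-sided, with P adjusted by Benjamini-Hochberg over the 17431 genes tested; a member is called, or said to have risen or fallen, when its adjusted P in this fit is under 0.05. Whether the mice of 2 groups overlap is given beside the test, since an exact permutation test of 4 against 4 reaches its smallest P when they do not. Where the text gives a call as lost or gained under an alternative analysis, the log2 fold changes stand with the range of adjusted P over all 23 alternatives. Of the 88 members 83 had enough counts to be tested. The second Atp5o identifier, Cox7b2 and Cox8c, of which the last pair are testis isoforms, had 0 counts in every mouse, Ndufb11b reached at most 2 counts in a mouse and Cox8b, a muscle and brown fat isoform, at most 9.

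The 2 genotypes differed in how much of the library the mitochondrial genome took up. Its share of all counts in mice 1 to 4 was 18.6, 22.7, 18.4 and 18.5 percent in Ctrl, 41.2, 58.9, 55.3 and 53.4 in Model, and 53.8, 64.6, 54.6 and 54.2 in YHY. The groups of db/db mice lay far above Ctrl, at 52.2 ± 7.68% in Model and 56.8 ± 5.21% in YHY against 19.5 ± 2.12% in Ctrl (mean ± SD, n = 4), and they overlapped each other. Model 1 stood apart from the other Model mice with the lowest share of its group, and YHY 2 had the highest share of all. The share of counts on the members ran the other way, at 2.65, 2.77, 2.85 and 2.74 percent in Ctrl, 2.26, 1.1958, 1.35 and 1.28 in Model, and 1.10, 0.718, 1.3413 and 1.35 in YHY. Model 1 again lay between Ctrl and the other Model mice, and YHY 2 was lowest. Wilson 95% intervals of these shares are at most 0.0396 points wide in any mouse and cover counting error only, since copies made by PCR are not told apart.

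Because the mitochondrial genome fills so much of the db/db libraries, the members' share was also taken of the counts on nuclear genes alone. On average it came to 3.42 ± 0.150% in Ctrl, 3.13 ± 0.488% in Model and 2.58 ± 0.453% in YHY (mean ± SD, n = 4). By mouse it was 3.25, 3.59, 3.4958 and 3.36 percent in Ctrl, 3.84, 2.91, 3.02 and 2.75 in Model, and 2.39, 2.03, 2.95 and 2.95 in YHY. On this scale Model 1 was the highest of the 12 mice, the other Model mice lay below every Ctrl mouse, and all YHY mice lay below every Ctrl mouse. Summed over the members, TMM-scaled CPM came to 21142, 25637, 23219.8 and 20366 in Ctrl, 21681, 15013, 16115 and 13396 in Model, and 10667, 9989, 13074 and 15569 in YHY. Every YHY mouse lay below every Ctrl mouse, while Model 1 fell inside the Ctrl range and the other Model mice fell under it. For each count on a member there were 6.86 ± 0.766 counts on subunits of the mitochondrial genome in Ctrl, 36.6 ± 13.0 in Model and 53.5 ± 23.3 in YHY.

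RNAs that stay in the nucleus also differed between the groups. Malat1 measured 151, 136, 107 and 104 CPM in Ctrl, 179.9, 406, 264 and 244 in Model, and 496, 518, 464 and 611 in YHY. For Malat1 and Neat1 every Model mouse was above every Ctrl mouse and every YHY mouse above every Model mouse. Beyond the values given below for other scalings and without single mice, the part of the mitochondrial share, of nuclear RNA and of Model 1 in the results on the members was not tested.

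Per kilobase, complex IV held the most abundant members. Cox8a, a small subunit of the membrane part of complex IV, had a mean level of 628 FPKM over the 12 mice, and Cox6a1, the widespread isoform of subunit VIa, 585 FPKM. In complex III the highest levels were those of Uqcr11 (376 FPKM) and Uqcr10 (343 FPKM), both small accessory subunits, and the lowest those of the core proteins Uqcrc2 (46.8 FPKM) and Uqcrc1 (75.0 FPKM). Complex I was led by the accessory subunits Ndufa1 (301 FPKM) and Ndufa2 (285 FPKM), and Ndufb2 (2.60 FPKM) was the lowest of its tested members, above the untested Ndufb11b. The catalytic pair of complex V, Atp5a1 (subunit alpha, 268 FPKM) and Atp5b (subunit beta, 256 FPKM), led that complex, and Atp5l (subunit g, 19.3 FPKM) was its lowest tested member. In complex II, Sdhb, the iron-sulfur subunit, stood at 184 FPKM, Sdhd at 83.2, Sdhc at 64.1 and Sdha, the flavoprotein, at 58.3 FPKM.

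**Figure D1:**
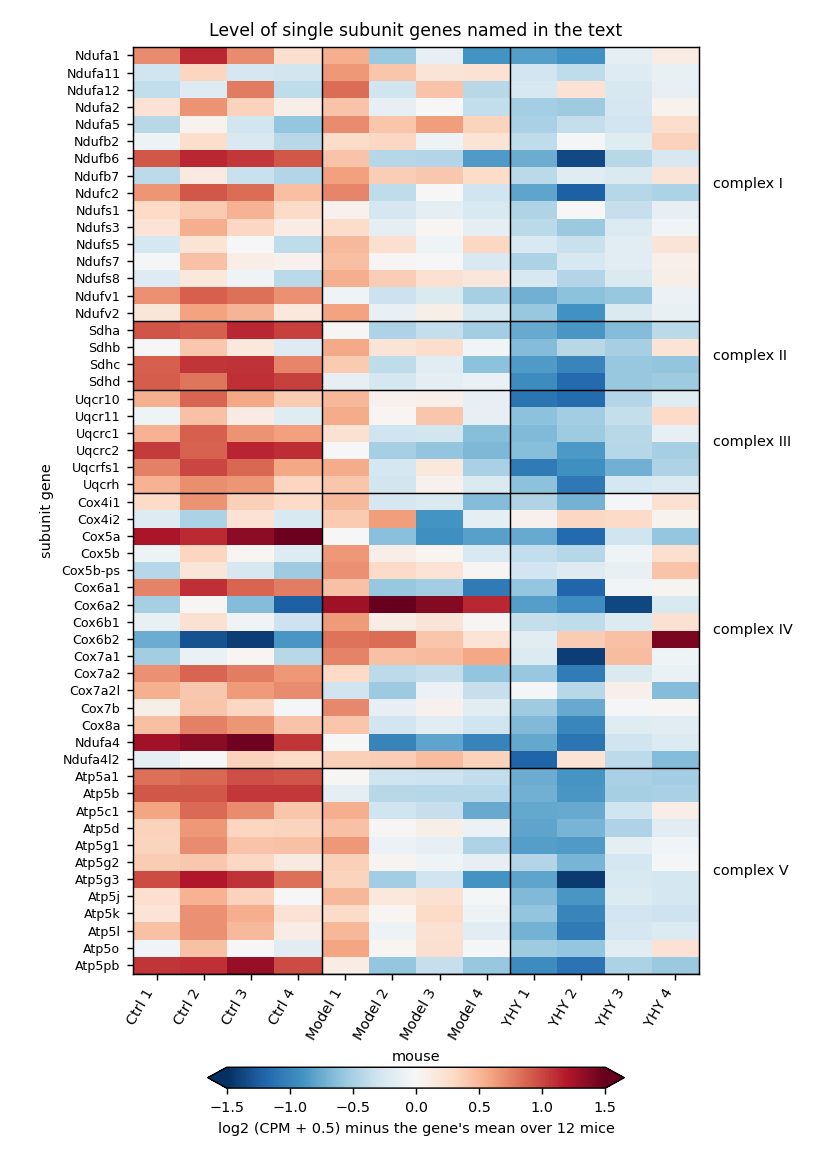
Heat map of the tested members that the text names (down the side, grouped by complex) in the 12 mice (across, by group), each cell giving log2(CPM + 0.5) minus that member's mean over the mice. Ctrl mice are mostly above the member means and YHY mice below them, and Model 1 is nearer to Ctrl than the other Model mice.

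Model against Ctrl asks what differs in the kidney of an untreated diabetic db/db mouse. Of the 83 tested members 28 fell (33.7%) and 8 rose (9.64%), while 47 were not called. Among all 17431 genes tested 18.5% fell and 19.6% rose, so falls were more frequent and rises less frequent among the members than among genes at large. Falls were lower in frequency than among the 1616 protein-coding genes with a mean count of at least 2000, a comparison chosen after seeing the data, of which 43.3% fell and 12.4% rose. The median log2 fold change was -0.29 over the members, 0.04 over all genes tested and -0.38 over those abundant genes.

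The 12 largest falls were those of Ndufb6 of complex I, Sdha, Sdhc and Sdhd of complex II, Uqcrc2 of complex III, Ndufa4, Cox5a and Cox6a1 of complex IV, and Atp5a1, Atp5b, Atp5pb and Atp5g3 of ATP synthase. A list of 20 subunits from all 5 complexes, called core here, holds the whole of complex II and the Rieske and core proteins of complex III. It also holds subunits of complex I and the alpha, beta and gamma subunits of ATP synthase. For complex IV it takes Cox4i1, Cox5a and Cox5b, which are not the catalytic core, since that is made from the mitochondrial genome. Of these 20, 13 fell and 1 rose, with a median of -0.81, against 15 falls, 7 rises and a median of -0.23 among the other 63. Without overlap between the mice, 24 members lay below Ctrl, where 20.3% of all genes tested did, and 7 above it, where 19.9% did. In bulk tissue, fewer cells of a type and less RNA per cell cannot be told apart.

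The counts depend on scaling and on single mice. With library size alone in place of TMM, which moves the median of all genes from 0.04 to -0.39 and the split of all calls from 3412 rises and 3219 falls to 1547 and 5667, 46 members fell and 2 rose. Without Model 1 falls numbered 40 (48.2%, all genes 20.9%). Rises numbered 4 (4.82%) without Ctrl 1, Ctrl 4 or Model 1, where 14.1, 15.1 and 18.1% of all genes rose, and 5 (6.02%) without Ctrl 3 or Model 2, where 14.3 and 14.9% did, against 19.6% with all mice. They numbered 4 after removal of a trend on GC content, an alternative chosen after seeing the data (4.82%, all genes 18.4%). Scaling without the mitochondrial genome gave 8 rises and 28 falls (33.7%, all genes 18.7%), 14 falls in YHY against Model (16.9%, all genes 7.23%) and 51 in YHY against Ctrl (61.4%, all genes 23.8%). In each of the 23 alternatives for Model against Ctrl the share that fell was higher, and the share that rose lower, among the members than among all genes tested. The share that fell was also lower in each of them than among the abundant protein-coding genes. It was 55.4 against 63.9% with library size alone and 48.2 against 51.2% without Model 1.

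**Figure D2:**
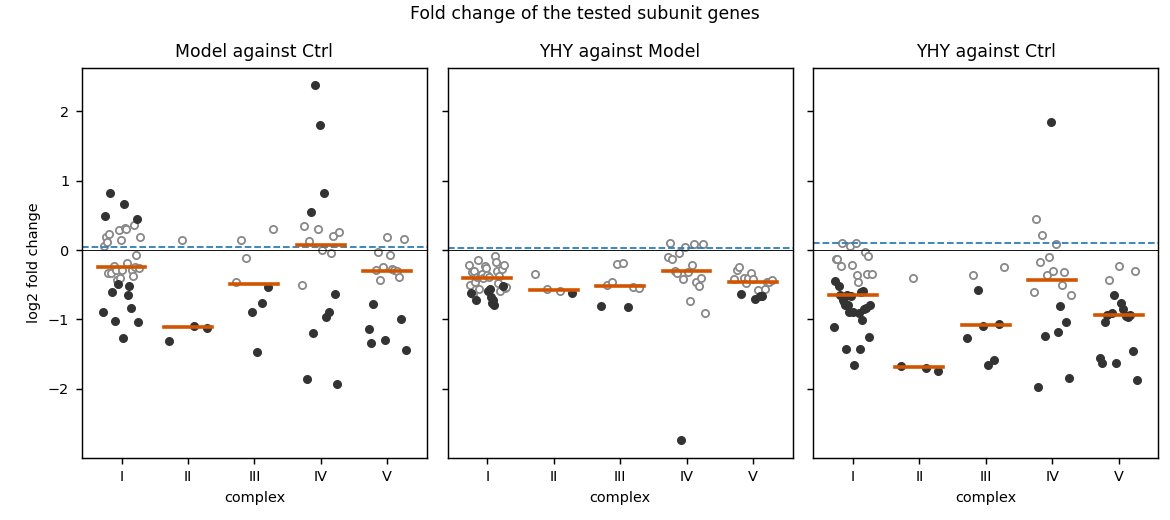
Log2 fold changes of the tested members by complex (x axis) for Model against Ctrl, YHY against Model and YHY against Ctrl, 1 point per member, filled when the adjusted P is under 0.05. The orange line marks the median of the members of a complex and the blue dashed line that of all genes tested, under which most members lie in all 3 panels with TMM scaling.

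Complex I, where NADH enters, showed 9 falls and 4 rises among 36 tested members, with a median log2 fold change of -0.25. Ndufv1, which binds NADH and flavin, measured 287, 334, 317 and 288 CPM in Ctrl, 172, 143, 153 and 127 in Model, and 108, 116, 121 and 168 in YHY. The Ctrl mice were all above the db/db mice, whose groups overlapped. Ndufv1 fell in Model (log2 fold change -1.04, SE 0.17, adjusted P = 1.9e-04). Ndufs1, the largest iron-sulfur subunit, stood at 119.9 ± 9.31 CPM in Ctrl and 83.8 ± 8.59 in Model (mean ± SD, n = 4) and fell by less (log2 fold change -0.52, SE 0.14, adjusted P = 0.0092). The core subunits Ndufs3 (log2 fold change -0.29, adjusted P = 0.174), Ndufs7 (-0.07, adjusted P = 0.782) and Ndufv2 (-0.25, adjusted P = 0.371) were not called. Ndufs3 was called lower under scaling to library size alone (-0.69) and without Model 1 (-0.44), with adjusted P from 0.0165 to 0.393.

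The largest fall within complex I was that of Ndufb6, an accessory subunit of the membrane arm chosen after its values were seen. Ndufb6 measured 75.4, 86.3, 82.4 and 75.4 CPM in Ctrl, 53.0, 29.2, 28.8 and 21.5 in Model, and 23.2, 15.1, 29.4 and 33.2 in YHY. All db/db mice lay below all Ctrl mice, Model 1 being the highest among them, and the log2 fold change in Model was -1.27 (SE 0.26, adjusted P = 0.00116). Ndufc2, a membrane arm subunit that the rule names for its fall in YHY, stood at 133 ± 19.2 CPM in Ctrl and 85.1 ± 33.6 in Model and fell with overlapping groups (log2 fold change -0.65, SE 0.24, adjusted P = 0.0416). The call of Ndufc2 was lost without Ctrl 1, Ctrl 2, Ctrl 3, Model 2, Model 3 or Model 4 (log2 fold change -0.71 to -0.52) and under upper-quartile scaling or removal of the GC trend (-0.58 to -0.55), with adjusted P from 0.00133 to 0.132.

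The 4 rises in complex I were those of Ndufs8, Ndufa5, Ndufb7 and Ndufa11, of which the last 3 were chosen after their values were seen. Ndufs8, an iron-sulfur core subunit that relays electrons toward ubiquinone, measured 204, 262, 224 and 177 CPM in Ctrl and 341, 303, 273 and 263 in Model. The lowest Model mouse was just above the highest Ctrl mouse, and Ndufs8 was the only core subunit called higher (log2 fold change 0.45, SE 0.17, adjusted P = 0.0456). The call of Ndufs8 was lost without Ctrl 1, Ctrl 3, Ctrl 4, Model 1, Model 2, Model 3, Model 4, YHY 1 or YHY 3 (log2 fold change 0.31 to 0.49) and under scaling to library size alone, no filter on low counts, a replicate block or removal of the GC trend (0.04 to 0.45), with adjusted P from 0.0163 to 0.906. Ndufa5, an accessory subunit of the matrix arm, measured 155, 214, 171 and 138 CPM in Ctrl and 339, 277, 319 and 260.1 in Model. Its groups did not overlap and it rose (log2 fold change 0.82, SE 0.19, adjusted P = 0.00323). Ndufb7, a membrane arm subunit, measured 166, 239, 173 and 160.1 CPM in Ctrl and 336, 281, 289 and 264 in Model. Every Model mouse was above Ctrl 2, the highest of its group, and Ndufb7 rose (log2 fold change 0.67, SE 0.17, adjusted P = 0.00708). Ndufa11, another membrane arm subunit, stood at 94.4 ± 21.4 CPM in Ctrl and 132 ± 20.1 in Model and was called higher although Ctrl 2 lay inside the Model range (log2 fold change 0.49, SE 0.17, adjusted P = 0.0304). The call of Ndufa5 was lost under scaling to library size alone (0.41), with adjusted P from 1.3e-04 to 0.134. That of Ndufb7 was lost under scaling to library size alone or removal of the GC trend (0.26 to 0.37), with adjusted P from 7.6e-04 to 0.316. That of Ndufa11 was lost without Ctrl 1, Ctrl 3, Ctrl 4, Model 1 or Model 2 (log2 fold change 0.32 to 0.47) and under scaling to library size alone, no filter on low counts or removal of the GC trend (0.08 to 0.46), with adjusted P from 0.00481 to 0.775.

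Proteins that build complex I but are not part of it were taken from a list of 17 assembly factors, of which 16 are in the table (Coa1 is not). Of these 8 fell and 0 rose (all genes 18.5% and 19.6%), with a median of -0.50. Acad9, an acyl-CoA dehydrogenase that also serves in complex I assembly, measured 25.3, 20.8, 23.0 and 22.2 CPM in Ctrl and 9.17, 9.24, 11.3 and 9.28 in Model. Its groups were far apart, and its log2 fold change was -1.22 (adjusted P = 1.2e-04). Timmdc1 (log2 fold change -1.09, adjusted P = 1.3e-04) and Tmem126b (-0.81, adjusted P = 3.3e-04), both membrane assembly factors, fell as well.

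Complex II, succinate dehydrogenase, is also an enzyme of the citric acid cycle. It had 3 falls among its 4 members and a median log2 fold change of -1.11, the lowest of any complex. Sdha, the flavoprotein that oxidises succinate, measured 405, 391.8, 460.2 and 426 CPM in Ctrl, 213, 153, 164 and 146 in Model, and 124, 114, 133 and 159 in YHY. Every db/db mouse was below every Ctrl mouse, with Model 1 highest among the Model mice, and Sdha fell (log2 fold change -1.32, SE 0.16, adjusted P = 2.9e-05). Sdhc, a membrane anchor, measured 339.5, 382, 385 and 303 CPM in Ctrl, 238, 139, 161 and 118 in Model, and 101, 91.3, 122 and 121 in YHY. It separated Ctrl from the db/db mice in the same way and fell (log2 fold change -1.10, SE 0.20, adjusted P = 5.4e-04). Sdhd, the other anchor, measured 169, 156, 191 and 183 CPM in Ctrl, 81.8, 74.4, 81.7 and 83.4 in Model, and 46.4, 39.5, 60.4 and 61.8 in YHY. Here the 4 Model mice were close together and far below Ctrl (log2 fold change -1.12, SE 0.16, adjusted P = 7.1e-05). Sdhb, the iron-sulfur subunit, differed from the other 3 subunits in not being called, at 403, 529, 448 and 349 CPM in Ctrl and 594, 457, 480 and 388 in Model. Its groups overlapped, with a log2 fold change of 0.15 (adjusted P = 0.601) that became -0.25 with library size alone and -0.03 without Model 1.

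Of 4 assembly factors of complex II 2 fell and 0 rose, with a median of -0.53, where 18.5% of all genes tested fell and 19.6% rose. Among 12 other genes of the citric acid cycle, which feeds the chain with NADH and succinate, 10 fell and 0 rose, with a median of -0.80. Suclg1, the alpha subunit of succinyl-CoA ligase, measured 265, 289, 285 and 284 CPM in Ctrl and 116, 69.9, 68.5 and 61.1 in Model. Model 1 stood apart from the other Model mice but below every Ctrl mouse, and the log2 fold change was -1.83 (adjusted P = 1.7e-05). Sucla2, the ATP-forming beta subunit of the same enzyme, fell too (log2 fold change -1.27, adjusted P = 1.5e-05).

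Complex III had 4 falls and 0 rises among 8 members, with a median log2 fold change of -0.50. Uqcrc2, a core protein on the matrix side, measured 213, 191, 227 and 223 CPM in Ctrl, 103, 72.9, 68.1 and 64.6 in Model, and 65.8, 56.4, 76.5 and 72.7 in YHY. The Ctrl mice lay within a narrow band well above all db/db mice, and Uqcrc2 fell (log2 fold change -1.47, SE 0.17, adjusted P = 1.5e-05). Uqcrc1, its partner, measured 414, 540.4, 460 and 444 CPM in Ctrl, 339, 235, 239.5 and 186 in Model, and 183, 199, 216 and 267 in YHY. Model 1 was the highest db/db mouse yet below Ctrl, and Uqcrc1 fell (log2 fold change -0.89, SE 0.19, adjusted P = 0.00175). Uqcrfs1, the Rieske iron-sulfur protein that takes electrons from ubiquinol, measured 419, 497, 452 and 373 CPM in Ctrl, 364, 207, 278 and 178 in Model, and 118, 131, 151 and 179.7 in YHY. Model 1 came close to the lowest Ctrl mouse without reaching it, and Uqcrfs1 fell (log2 fold change -0.76, SE 0.21, adjusted P = 0.0106). Uqcrh, the hinge protein that helps cytochrome c1 meet cytochrome c, was chosen after its values were seen and fell with overlapping groups, from 305 ± 35.0 to 209.9 ± 48.2 CPM (log2 fold change -0.54, SE 0.21, adjusted P = 0.0489). The call of Uqcrh was lost without Ctrl 1, Ctrl 2, Ctrl 3, Model 2, Model 3, Model 4, YHY 1 or YHY 3 (log2 fold change -0.60 to -0.45) and under upper-quartile scaling, a minimum of 10 counts in every mouse, a replicate block or removal of the GC trend (-0.56 to -0.44), with adjusted P from 0.00914 to 0.145.

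Of 6 assembly factors of complex III 3 fell and 1 rose, with a median of -0.33, where 18.5% of all genes tested fell and 19.6% rose. A list of 17 mobile carriers and other entry points to the chain, which takes in cytochrome c, cytochrome c1 and the enzymes of ubiquinone synthesis, had 9 falls, 1 rise and a median of -0.47. Cyc1, cytochrome c1 itself, the haem subunit of complex III that the symbol rule leaves out, measured 339, 366, 373 and 361 CPM in Ctrl and 231, 175, 196 and 192 in Model. Every Model mouse was below every Ctrl mouse, at a log2 fold change of -0.86 (adjusted P = 4.1e-04). The electron-transfer flavoprotein, which brings electrons from fatty acid oxidation, was split. Its alpha subunit Etfa (log2 fold change -1.31, adjusted P = 1.2e-04) and the dehydrogenase Etfdh that passes its electrons to ubiquinone (-1.17, adjusted P = 1.4e-04) fell, while its beta subunit Etfb rose (1.03, adjusted P = 0.00137).

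Complex IV, cytochrome c oxidase, was the most divided, with 6 falls and 4 rises among 18 tested members and a median log2 fold change of 0.07. Ndufa4, a subunit first assigned to complex I, measured 389, 414, 444 and 342 CPM in Ctrl, 162, 80.5, 93.1 and 80.6 in Model, and 94.4, 75.1, 131 and 140.4 in YHY. Ctrl mice had more than every db/db mouse, Model 1 stood above the other Model mice, and the fall was the largest of any member (GRCm39 chromosome 6, bases 11900291 to 11907496, log2 fold change -1.93, SE 0.25, adjusted P = 3.6e-05). Cox5a, a matrix-side subunit, measured 76.3, 70.6, 82.4 and 90.1 CPM in Ctrl, 32.2, 20.6, 16.8 and 18.2 in Model, and 18.9, 14.2, 26.2 and 21.4 in YHY (GRCm39 chromosome 9, bases 57428557 to 57439709). Every db/db mouse was under every Ctrl mouse by a wide margin (log2 fold change -1.86, SE 0.22, adjusted P = 1.6e-05). Cox6a1 measured 602, 772, 662 and 613 CPM in Ctrl, 489.8, 244, 251 and 173 in Model, and 241, 158, 349.9 and 370.2 in YHY. Model 1 lay between Ctrl and the other Model mice, and Cox6a1 fell (log2 fold change -1.1951, SE 0.30, adjusted P = 0.0052). Cox7a2 (from 278 ± 18.7 to 142 ± 41.5 CPM, log2 fold change -0.97, SE 0.22, adjusted P = 0.00252) and Cox7a2l, which joins complexes III and IV into supercomplexes (from 101 ± 9.22 to 54.1 ± 7.20 CPM, log2 fold change -0.89, SE 0.17, adjusted P = 7.1e-04), fell without overlap between the groups. Cox8a fell from 547 ± 62.7 to 353 ± 91.3 CPM (log2 fold change -0.63, SE 0.21, adjusted P = 0.0288). The call of Cox8a was lost without Ctrl 2, Ctrl 3, Model 2, Model 3 or Model 4 (log2 fold change -0.65 to -0.56) and under upper-quartile scaling (-0.53), with adjusted P from 0.00285 to 0.0887. Cox4i1 (log2 fold change -0.51, adjusted P = 0.113) and Cox5b (0.14, adjusted P = 0.634), the remaining core-list subunits, were not called. Cox4i1 was called lower under scaling to library size alone, the set of 9 mice or removal of the GC trend (-0.90 to -0.70) and without Model 1 (-0.83), with adjusted P from 0.00837 to 0.293.

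The rises in complex IV were those of 3 isoforms with restricted expression and of Cox5b-ps. Cox6a2, the heart and skeletal muscle isoform of subunit VIa, measured 1.23, 1.97, 1.05 and 0.546 CPM in Ctrl, 5.38, 8.77, 5.85 and 4.83 in Model, and 0.878, 0.774, 0.447 and 1.59 in YHY (GRCm39 chromosome 7, bases 127804607 to 127805559). All Model mice lay above all Ctrl and all YHY mice, and the rise was the largest of any member (log2 fold change 2.38, SE 0.42, adjusted P = 4.1e-04). Cox6b2, the testis isoform of subunit VIb, measured 3.89, 2.47, 2.25 and 3.51 CPM in Ctrl, 12.4, 12.7, 9.32 and 8.00 in Model, and 6.07, 9.07, 9.49 and 19.0 in YHY (GRCm39 chromosome 7, bases 4754791 to 4756093). All db/db mice lay above all Ctrl mice (log2 fold change 1.80, SE 0.31, adjusted P = 3.9e-04). Cox7a1, the isoform of heart, skeletal muscle and brown fat, measured 9.53, 13.0, 14.2 and 10.3 CPM in Ctrl, 23.6, 19.1, 19.6 and 21.1 in Model, and 12.1, 4.92, 19.4 and 13.3 in YHY. Model mice were above Ctrl mice while YHY mice spread from below the Ctrl range into that of Model, and Cox7a1 rose (log2 fold change 0.83, SE 0.28, adjusted P = 0.0283). The call of Cox7a1 was lost without Ctrl 1, Ctrl 4, Model 1 or Model 4 (log2 fold change 0.69 to 0.82) and under scaling to library size alone, the set of 9 mice or removal of the gene length trend (0.42 to 0.76), with adjusted P from 8.5e-04 to 0.334. Cox5b-ps, chosen after its values were seen, carries the name of a copy of Cox5b, so reads may be shared between them and its value is uncertain. It stood at 104 ± 24.01 CPM in Ctrl and 152 ± 31.3 in Model, with overlapping groups (log2 fold change 0.55, SE 0.20, adjusted P = 0.0427). The call of Cox5b-ps was lost without Ctrl 1, Ctrl 3, Ctrl 4, Model 1, Model 2, Model 3 or YHY 3 (log2 fold change 0.35 to 0.59) and under scaling to library size alone, a replicate block, removal of the gene length trend or removal of the GC trend (0.16 to 0.56), with adjusted P from 0.0116 to 0.611.

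Markers of skeletal muscle and fat were low, and those of testis and heart were not analysed here. Of 5 skeletal muscle genes 1 was tested, Mylpf, the most abundant of them, and 0 were called in any of the 3 comparisons, with a summed level of 1.18, 1.65, 1.27 and 0.888 CPM in Ctrl, 1.42, 3.62, 1.55 and 2.52 in Model, and 1.95, 0.885, 0.968 and 1.63 in YHY. Model 2, the mouse with the most Cox6a2, also had the highest sum for muscle genes, but the groups overlapped in this sum. Mylpf alone measured 1.352, 2.668, 1.461 and 2.095 CPM in Model and 1.145, 0.4976, 0.7072 and 1.201 in YHY, without overlap. In Ctrl it measured 1.177, 1.654, 1.127 and 0.8879 CPM, overlapping with Model. Its log2 fold change was 0.64 in Model (adjusted P = 0.224) and -1.08 in YHY against Model (adjusted P = 0.0981). Of 6 genes of white and brown fat 0 were tested, and their summed level was 0.480, 0.0624, 0.0245 and 0.228 CPM in Ctrl, 0.225, 1.57, 0.731 and 0.556 in Model, and 0.687, 0.332, 0.447 and 0.930 in YHY. Of 5 adrenal cortex genes 1 was tested, Star, chosen after its values were seen, at 1.75, 2.00, 1.27 and 1.69 CPM in Ctrl, 3.09, 5.67, 4.43 and 3.63 in Model, and 3.40, 3.26, 3.80 and 3.95 in YHY, with every db/db mouse above every Ctrl mouse. It rose in Model (log2 fold change 1.32, adjusted P = 0.00128) and in YHY relative to Ctrl (1.10, adjusted P = 0.00294) and was not called between them. With library size alone the values were 0.87 and 0.69, and the call relative to Ctrl was lost in YHY, with adjusted P over the 23 alternatives from 7.8e-06 to 0.0226 in Model and 1.4e-04 to 0.0572 in YHY. The part of such tissues in the values of the members was not tested.

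The list of complex IV assembly factors holds 23 genes, of which 21 were tested while Sco2 and Pet117 had 0 counts in every mouse. It showed 7 falls and 2 rises (all genes 18.5% and 19.6%), with a median of -0.45. Sco1, a copper chaperone, measured 11.2, 12.3, 12.6 and 11.52 CPM in Ctrl and 6.44, 5.38, 5.44 and 4.62 in Model. All Model mice were below all Ctrl mice (log2 fold change -1.12, adjusted P = 5.8e-04). Cox16 (log2 fold change -1.22, adjusted P = 0.0161) and Higd2a (-1.04, adjusted P = 0.00633), assembly factors of the same complex, also fell. Pet100 measured 17.6, 26.6, 21.9 and 16.1 CPM in Ctrl and 42.9, 42.5, 46.4 and 43.3 in Model and rose without overlap (log2 fold change 1.09, adjusted P = 9.5e-05). Cox10, which acts in making the haem of complex IV, rose as well (log2 fold change 0.47, adjusted P = 0.0201). The call of Cox16 was lost without Model 2 or Model 4 (log2 fold change -1.10 to -1.05), with adjusted P from 0.00328 to 0.0511. That of Cox10 was lost without Ctrl 1, Ctrl 3 or Model 4 (log2 fold change 0.31 to 0.42) and under scaling to library size alone or no filter on low counts (0.04 to 0.44), with adjusted P from 0.00618 to 0.881.

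Complex V, ATP synthase, had 6 falls and 0 rises among 17 tested members, with a median log2 fold change of -0.30. Atp5b, the catalytic beta subunit, measured 1809, 1801, 1979.5 and 1981 CPM in Ctrl, 859.7, 713, 702 and 706 in Model, and 574, 516, 673 and 676 in YHY. All Ctrl mice were above all db/db mice (log2 fold change -1.3448, SE 0.16, adjusted P = 2.5e-05). Atp5a1, the alpha subunit, measured 1331, 1371, 1469.6 and 1452 CPM in Ctrl, 759, 609, 607 and 583 in Model, and 448, 407, 538 and 524 in YHY. It fell in the same way, with Model 1 set apart above the other Model mice (log2 fold change -1.14, SE 0.16, adjusted P = 8.6e-05). Atp5pb, subunit b of the peripheral stalk, measured 462, 470, 543 and 433 CPM in Ctrl, 237, 147, 172 and 148 in Model, and 113, 102, 158 and 149 in YHY. Its db/db mice were all below Ctrl (log2 fold change -1.44, SE 0.19, adjusted P = 5.5e-05). Atp5g3, one of 3 genes for the c ring through which protons turn the rotor, fell from 716 ± 80.9 to 289.5 ± 109 CPM (log2 fold change -1.31, SE 0.27, adjusted P = 0.00157). Atp5c1, the gamma subunit that forms the rotating shaft, fell with overlapping groups, from 549 ± 69.1 to 319 ± 131 CPM (log2 fold change -0.79, SE 0.26, adjusted P = 0.0247). The call of Atp5c1 was lost without Ctrl 2, Model 2, Model 3 or Model 4 (log2 fold change -0.74 to -0.63), with adjusted P from 6.2e-04 to 0.083.

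The other c ring genes were not called, with log2 fold changes of -0.43 for Atp5g1 (adjusted P = 0.169) and -0.24 for Atp5g2 (adjusted P = 0.251). Atp5g1 was called lower under scaling to library size alone or the set of 9 mice (-0.83 to -0.67) and without Model 1 (-0.76), with adjusted P from 0.0115 to 0.396. Atp5g2 was called lower under scaling to library size alone (-0.66), with adjusted P from 0.0258 to 0.514. Atpif1, the inhibitor that blocks ATP hydrolysis by complex V and is not a member by symbol, measured 70.0, 100, 74.5 and 65.1 CPM in Ctrl, 46.0, 38.1, 40.4 and 29.7 in Model, and 26.6, 39.4, 28.0 and 49.6 in YHY. All db/db mice were below all Ctrl mice, with a log2 fold change in Model of -1.01 (adjusted P = 0.00138). Of 4 assembly factors of complex V 0 were called by edgeR (all genes 18.5% lower and 19.6% higher), with a median of -0.30.

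The sequence around the start is shown for 2 members: Ndufa4 as the member with the largest fall in Model, and Sdhd as a member that fell and holds a motif (for the estrogen-related receptors). Promoter windows of 300 bases, 250 before and 50 after the start, came from RefSeq on GRCm38.p6, where 70 of the 88 member records were matched by symbol, with 74 windows in all out of 32851. Motifs of 4 factors known to act on respiratory genes were searched on both strands, and capitals mark them: CGCATGCG for NRF1, CCGGAAGT for the ETS family (which GABP belongs to), AAGATGGCG for YY1 and TCAAGGTCA for the estrogen-related receptors. The windows are Ndufa4 chr6:11907401-11907700 (minus strand) and Sdhd chr9:50603800-50604099 (minus strand).
Ndufa4: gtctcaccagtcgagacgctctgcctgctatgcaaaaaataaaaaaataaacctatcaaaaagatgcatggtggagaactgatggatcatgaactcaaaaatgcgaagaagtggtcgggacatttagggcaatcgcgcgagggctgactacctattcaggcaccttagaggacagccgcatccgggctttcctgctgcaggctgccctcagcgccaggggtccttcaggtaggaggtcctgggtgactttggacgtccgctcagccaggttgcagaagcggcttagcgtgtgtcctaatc
Sdhd: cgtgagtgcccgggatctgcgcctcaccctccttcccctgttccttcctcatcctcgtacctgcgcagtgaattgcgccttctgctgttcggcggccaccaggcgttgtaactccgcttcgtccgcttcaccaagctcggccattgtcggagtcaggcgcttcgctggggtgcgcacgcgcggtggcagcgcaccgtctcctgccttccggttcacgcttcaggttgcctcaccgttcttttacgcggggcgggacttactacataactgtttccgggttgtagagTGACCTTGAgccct

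The NRF1 motif was in 9 of 74 (12.2%), against 1.87% of all windows, and the YY1 motif in 7 of 74 (9.46%), against 1.4% of all windows. The ETS motif was in 5 of 74 (6.76%), against 3.89% of all windows, and the receptor motif in 2 of 74 (2.7%), against 0.423% of all windows. Of 22 members that fell and have a window, 2 held the NRF1 motif, 2 the ETS motif, 1 the YY1 motif and 2 the receptor motif. Of 6 that rose, 1 held the NRF1 motif and 0 any of the others, and of 39 not called, 6 held the NRF1 motif, 3 the ETS motif, 6 the YY1 motif and 0 the receptor motif. A match is a run of letters and does not show that a factor binds there. The member windows had a median GC content of 57.5%, against 52.67% of all windows, and its part in these shares was not tested.

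Among 14 regulators of mitochondrial biogenesis 3 rose and 4 fell, with a median of 0.01. Among all genes tested 19.6% rose and 18.5% fell, and a list this small cannot show a difference from these shares. Ppargc1b, a coactivator of respiratory genes, measured 2.23, 2.90, 2.82 and 2.03 CPM in Ctrl and 5.73, 9.43, 9.09 and 8.68 in Model. Every Model mouse was above every Ctrl mouse (log2 fold change 1.72, adjusted P = 1.3e-04). The GABP subunits split, with the DNA-binding Gabpa falling (log2 fold change -0.81, adjusted P = 0.00363) and its partner Gabpb1 rising (0.53, adjusted P = 0.0152). Tfam, which packs and transcribes the mitochondrial genome (log2 fold change -0.55, adjusted P = 0.00511), and Yy1 (-0.51, adjusted P = 0.00723) fell. The call of Gabpb1 was lost without Ctrl 3, Ctrl 4 or Model 4 (log2 fold change 0.45) and under scaling to library size alone or no filter on low counts (0.10 to 0.50), with adjusted P from 0.00375 to 0.718. All 13 subunits of the mitochondrial genome rose (median 1.91), where 8 of the 83 nuclear-encoded members did. For mt-Co1, the catalytic core of complex IV, the log2 fold change was 2.14 (adjusted P = 1.3e-04), and for the complex I subunits mt-Nd5 2.2036 (adjusted P = 1.0e-04) and mt-Nd6 2.34 (adjusted P = 2.7e-05). The 4 nuclear-retained RNAs tested all rose, with log2 fold changes of 2.86 for Kcnq1ot1, 1.14 for Neat1 and 1.14 for Malat1 and adjusted P of 1.6e-05, 2.7e-04 and 9.1e-04. Cytosolic ribosomal proteins, another set of short and abundant transcripts, had 19 falls and 7 rises among 77 of 79 genes tested (all genes 18.5% and 19.6%), with a median of -0.17.

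YHY against Model asks what the extract changed in db/db kidneys. In edgeR 17 of 83 tested members fell (20.5%) and 0 rose (0%), where 7.62% of all genes tested fell and 5.63% rose. In this fit falls were more frequent among the members than among genes at large and near the 23.4% of the abundant protein-coding genes, of which 4.52% rose, but neither held in all alternatives. 79 of the 83 log2 fold changes were below 0, and their median was -0.42, against 0.02 over all genes tested and -0.29 over the abundant ones. Against Ctrl the median of the members was -0.29 in Model and -0.75 in YHY, and that of the abundant genes -0.38 and -0.68. By these medians, which have no test, both sets lay farther from Ctrl in treated than in untreated mice. By mouse Model and YHY overlapped in the summed CPM of the members, with YHY 4 at 15569 above Model 2 at 15013 and Model 4 at 13396. Model 1, at 21681, was highest of the Model mice. Model is the reference here and the numerator in Model against Ctrl, so both comparisons share its 4 mice.

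Without overlap between the mice, 18 members lay below Model, where 9.28% of all genes tested did, and 0 above it, where 6.83% did. Rises numbered 0 also in DESeq2 (all genes 8.23%, abundant genes 6.37%) and at an unadjusted P under 0.05 with a fold over 1.2 (all genes 13.9%). The number of falls depended on single mice and on the fit: it was 4 without Model 1 (4.82%, all genes 5.16%), 3 without Model 3 (3.61%, all genes 4.02%), 6 without YHY 1 (7.23%, all genes 5.59%), 5 without YHY 2 (6.02%, all genes 5.91%) and 31 without YHY 4 (37.3%, all genes 9.46%). It was 27 in DESeq2 (32.5%, all genes 9.68%), 46 at an unadjusted P under 0.05 with a fold over 1.2 (all genes 14.7%), 11 with a replicate block (13.3%, all genes 6.47%), 4 when only the groups compared were fitted (4.82%, all genes 4.2%) and 3 with library size alone (3.61%, all genes 3.94%). So the share of members that fell was below that of all genes without Model 1, without Model 3 and with library size alone, and close to it without YHY 2 and with only the groups compared, and in these fits 12.7 to 17.6% of the abundant genes fell. The subunits of the core list had 3 falls among 20 and a median of -0.30, and the other 63 members 14 falls and a median of -0.47.

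In complex I, 9 of 36 members fell, with a median log2 fold change of -0.40. Ndufc2 measured 134, 61.5, 79.9 and 65.0 CPM in Model and 46.0, 33.9, 59.7 and 57.6 in YHY. The highest YHY mouse was just under the lowest Model mouse, and Ndufc2 fell (log2 fold change -0.79, SE 0.24, adjusted P = 0.0393). The call of Ndufc2 was lost without Ctrl 1, Ctrl 3, Model 1, Model 3, YHY 1 or YHY 2 (log2 fold change -0.82 to -0.48) and under scaling to library size alone, fitting only the groups compared, the set of 9 mice, a replicate block or removal of the gene length trend (-0.79 to -0.54), with adjusted P from 0.00663 to 0.152. Ndufs8, which had risen in Model, measured 198, 172, 201 and 249 CPM in YHY, so that all YHY mice were under all Model mice and inside or near the Ctrl range. It fell in YHY (log2 fold change -0.52, SE 0.17, adjusted P = 0.0488). The call of Ndufs8 was lost without Ctrl 1, Ctrl 3, Model 1, Model 2, Model 3, Model 4, YHY 1, YHY 2 or YHY 3 (log2 fold change -0.58 to -0.45) and under upper-quartile scaling, scaling to library size alone, scaling without the mitochondrial genome, no filter on low counts, fitting only the groups compared, a replicate block, removal of the gene length trend or removal of the GC trend (-0.53 to -0.39), with adjusted P from 0.0135 to 0.144.

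The other 3 complex I members that had risen in Model, chosen after their values were seen, fell in YHY too. Ndufs8 and these 3 were picked as high in the same Model mice that serve as reference here, which favours a fall. All 36 tested members of complex I had log2 fold changes below 0 in this comparison, so the direction is not particular to them. Ndufa5 measured 147, 162, 169 and 248 CPM in YHY in mice 1 to 4 and fell (log2 fold change -0.72, SE 0.19, adjusted P = 0.0212). Ndufb7 measured 164, 193, 187 and 249 CPM in YHY and fell (log2 fold change -0.56, SE 0.17, adjusted P = 0.0441). Ndufa11 measured 83.3, 77.7, 88.8 and 93.6 CPM in YHY and fell (log2 fold change -0.62, SE 0.17, adjusted P = 0.023). For each of them every YHY mouse was below every Model mouse, and the YHY and Ctrl mice overlapped. The call of Ndufa5 was lost without Model 3, YHY 1 or YHY 2 (log2 fold change -0.69 to -0.63), with adjusted P from 0.00244 to 0.066. That of Ndufb7 was lost without Ctrl 1, Ctrl 3, Model 1, Model 2, Model 3, Model 4, YHY 1, YHY 2 or YHY 3 (log2 fold change -0.61 to -0.48) and under scaling to library size alone, no filter on low counts, fitting only the groups compared, a replicate block or removal of the GC trend (-0.58 to -0.52), with adjusted P from 0.0122 to 0.111. That of Ndufa11 was lost without Model 1 or YHY 2 (log2 fold change -0.58 to -0.52) and under scaling to library size alone (-0.62), with adjusted P from 0.00539 to 0.0821.

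The core subunits Ndufs1 and Ndufv1, which had fallen in Model, were not called here, with log2 fold changes of -0.09 (adjusted P = 0.743) and -0.21 (adjusted P = 0.426). Ndufs3 (log2 fold change -0.30, adjusted P = 0.233), Ndufs7 (-0.27, adjusted P = 0.333) and Ndufv2 (-0.54, adjusted P = 0.107) were not called either. In complex II, Sdhd was the single fall, from 80.3 ± 4.02 to 52.0 ± 10.9 CPM, with every YHY mouse below every Model mouse (log2 fold change -0.63, SE 0.16, adjusted P = 0.0163). The call of Sdhd was lost without Model 3 (log2 fold change -0.62) and under scaling to library size alone or fitting only the groups compared (-0.61 to -0.58), with adjusted P from 0.00111 to 0.112. Sdha (log2 fold change -0.35, adjusted P = 0.164), Sdhb (-0.56, adjusted P = 0.0883) and Sdhc (-0.59, adjusted P = 0.0611) were not called, and the median of the complex was -0.58. Sdhb was called lower under DESeq2 or the set of 9 mice (-0.65 to -0.56) and without YHY 4 (-0.78), with adjusted P from 0.0136 to 0.2. Sdhc was called lower under DESeq2 or no filter on low counts (-0.60 to -0.59) and without Model 4 (-0.72), with adjusted P from 0.0263 to 0.204.

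In complex III, Uqcr10 and Uqcrfs1 fell, and the median of the 8 members was -0.52. Uqcr10, a small accessory subunit not called in Model, measured 268, 337, 276 and 239 CPM in Ctrl, 260, 193, 195 and 169 in Model, and 85.7, 82.6, 135 and 162 in YHY. All YHY mice were below all Model mice, YHY 4 by a small margin, while Ctrl and Model overlapped (log2 fold change -0.81, SE 0.22, adjusted P = 0.0241). The call of Uqcr10 was lost without Model 1, Model 3, YHY 1 or YHY 2 (log2 fold change -0.83 to -0.67) and under scaling to library size alone or fitting only the groups compared (-0.81 to -0.77), with adjusted P from 0.00345 to 0.0701. In Model against Ctrl Uqcr10 was called lower under scaling to library size alone, fitting only the groups compared, the set of 9 mice or removal of the gene length trend (-0.86 to -0.47) and without Model 1 (-0.65), with adjusted P from 0.0125 to 0.253. Uqcrfs1, with the values by mouse given above, fell from 257 ± 83.2 to 145 ± 26.7 CPM, YHY 4 lying within the Model range (log2 fold change -0.82, SE 0.21, adjusted P = 0.0199). The call of Uqcrfs1 was lost without Model 1, Model 3, YHY 1 or YHY 2 (log2 fold change -0.79 to -0.61) and under scaling to library size alone or fitting only the groups compared (-0.84 to -0.78), with adjusted P from 0.00207 to 0.0628. Uqcrc1 (log2 fold change -0.21, adjusted P = 0.511) and Uqcrc2 (-0.19, adjusted P = 0.501) were not called.

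In complex IV, Cox6a2 was the single fall and the largest of any member (log2 fold change -2.74, SE 0.43, adjusted P = 0.00135), and the median of the 18 members tested was -0.31. Its level went from 6.20 ± 1.76 CPM in Model to 0.922 ± 0.481 in YHY, beside 1.198 ± 0.588 in Ctrl (mean ± SD, n = 4), so that YHY and Ctrl mice overlapped. The same 4 Model mice underlie its rise relative to Ctrl and this fall. Of the 6 members called here that the rule names for fold changes, it was the only one whose call held in every alternative tried. Cox6b2, the other isoform with a large rise in Model, did not follow it: its log2 fold change was 0.04 (adjusted P = 0.953). Cox7a1 spread from YHY 2, the lowest of all mice, to YHY 3 at the Model level, and was not called (log2 fold change -0.74, SE 0.28, adjusted P = 0.0912). Cox7a1 was called lower under no filter on low counts (-0.75) and without YHY 3 (-1.04), with adjusted P from 0.0233 to 0.236. Ndufa4l2, a paralog of Ndufa4 induced in hypoxia, measured 3.87, 4.37, 5.68 and 5.46 CPM in Ctrl, 5.73, 5.76, 6.17 and 5.64 in Model, and 1.60, 5.09, 3.20 and 2.60 in YHY. All YHY mice were below all Model mice, but Ndufa4l2 was not called (log2 fold change -0.91, SE 0.30, adjusted P = 0.0531). It was called lower under DESeq2, no filter on low counts, a minimum of 10 counts in every mouse or a replicate block (-0.98 to -0.89) and without YHY 2 (-1.24), with adjusted P from 0.0122 to 0.137. Not called in YHY relative to Ctrl either, it was called lower under scaling to library size alone or removal of the GC trend (-1.14 to -0.90) and without Ctrl 1 or YHY 2 (-0.98 to -0.80), with adjusted P from 0.00348 to 0.197.

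The complex IV members with the largest falls in Model overlapped with Model in YHY. The log2 fold changes were 0.08 for Ndufa4 (adjusted P = 0.867), -0.12 for Cox5a (adjusted P = 0.759) and -0.05 for Cox6a1 (adjusted P = 0.943). The sign of each turned when single mice were left out, with a range from -0.06 to 0.38 for Ndufa4, -0.28 to 0.13 for Cox5a and -0.23 to 0.34 for Cox6a1. In complex V, 4 of 17 members fell, Atp5j, Atp5k, Atp5l and Atp5d, whose fold changes were picked after their values were seen (the rule names Atp5l for its level), and the median was -0.46. Atp5j, subunit F6 of the stalk, measured 408, 322, 338 and 282 CPM in Model and 182, 157, 249.6 and 240.2 in YHY, without overlap (log2 fold change -0.70, SE 0.19, adjusted P = 0.0216). Atp5d, subunit delta of the rotor, measured 542, 406, 424 and 376 CPM in Model and 232, 247, 289.7 and 355 in YHY, again without overlap (log2 fold change -0.64, SE 0.18, adjusted P = 0.0279). The membrane subunits Atp5k (log2 fold change -0.66, adjusted P = 0.0218) and Atp5l (-0.66, adjusted P = 0.0464) likewise had every YHY mouse below every Model mouse. The call of at least 1 of these 4 was lost without Ctrl 1, Ctrl 3, Model 1, Model 2, Model 3, YHY 1 or YHY 2 (log2 fold change -0.73 to -0.52) and under scaling to library size alone, fitting only the groups compared, a replicate block, removal of the gene length trend, removal of the GC trend, upper-quartile scaling, scaling without the mitochondrial genome or the set of 9 mice (-0.69 to -0.53), with adjusted P from 0.00228 to 0.142. The catalytic subunits Atp5a1 (log2 fold change -0.42, adjusted P = 0.0996) and Atp5b (-0.29, adjusted P = 0.252) were lower in every YHY mouse than in every Model mouse, yet neither was called by edgeR. Atp5a1 was called lower under DESeq2 (-0.41), with adjusted P from 0.0168 to 0.291. Atp5g2, likewise not called, was called lower without YHY 4 (-0.53), with adjusted P from 0.0392 to 0.293.

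In the lists around the chain, 6 of 16 tested assembly factors of complex I, 1 of 4 of complex II, 1 of 6 of complex III, 9 of 21 of complex IV and 1 of 4 of complex V fell and 0 rose, beside 7.62% and 5.63% of all genes tested, and lists this small cannot show whether rises are fewer. Of the carriers and entry points 5 of 17 fell, of the citric acid cycle genes 2 of 12, of the biogenesis regulators 1 of 14 and of the cytosolic ribosomal proteins 18 of 77, with 0 rises in each list. The subunits of the mitochondrial genome had 0 calls among 13 and a median of 0.01, against -0.42 for the nuclear-encoded members. Of the nuclear-retained RNAs 2 of 4 rose, Malat1 and Neat1. Atpif1 was not called (log2 fold change -0.10, adjusted P = 0.794).

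YHY against Ctrl sets treated diabetic kidneys beside those of db/+ mice, and shares the Ctrl mice with Model against Ctrl and the YHY mice with YHY against Model. Here 52 of 83 tested members fell (62.7%), against 24.2% of all genes tested, and 1 rose (1.2%), against 26.1%. The share that fell was well above that of all genes and next to the 61.3% of abundant protein-coding genes, of which 12.1% rose. The median log2 fold change was -0.75 over the members, 0.10 over all genes tested and -0.68 over the abundant ones. 49 members lay below Ctrl in every YHY mouse, where 22.7% of all genes tested did, and 1, Cox6b2, above it, where 21.9% did.

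By complex, 23 of 36 members of complex I fell (median -0.64), 3 of 4 of complex II (-1.68), 6 of 8 of complex III (-1.08), 6 of 18 of complex IV (-0.43) and 14 of 17 of complex V (-0.94). The 20 subunits of the core list had 15 falls and a median of -1.07, and the other 63 had 37 falls, 1 rise and a median of -0.65. When each mouse was left out in turn the number of falls ran from 48 to 61 (all genes 22.3 to 25.7%), and it was 70 with library size alone, which moves the split of all calls from 4547 rises and 4215 falls to 2365 and 5977. All 27 members called here that the rule names for fold changes kept their call and direction in every alternative tried.

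The largest falls were those of Cox5a (log2 fold change -1.98, SE 0.22, adjusted P = 3.2e-06), Atp5pb and Ndufa4. Atp5pb stood at 477 ± 46.8 CPM in Ctrl and 130.4 ± 27.1 in YHY (mean ± SD, n = 4) and fell without overlap (log2 fold change -1.87, SE 0.20, adjusted P = 2.4e-06). Ndufa4 stood at 397 ± 43.5 and 110.3 ± 30.8 CPM and fell without overlap (log2 fold change -1.85, SE 0.25, adjusted P = 1.9e-05). In complex II the log2 fold changes were -1.67 for Sdha, -1.70 for Sdhc and -1.75 for Sdhd (adjusted P of 1.5e-06, 7.5e-06 and 7.2e-07), while Sdhb was not called (-0.41, adjusted P = 0.114). Sdhb was called lower under scaling to library size alone or the set of 9 mice (-0.84 to -0.56) and without Ctrl 4 or YHY 4 (-0.63 to -0.57), with adjusted P from 0.00573 to 0.326. In complex III they were -1.10 for Uqcrc1, -1.65 for Uqcrc2, -1.58 for Uqcrfs1 and -1.27 for Uqcr10 (adjusted P of 2.0e-04, 1.9e-06, 2.4e-05 and 2.0e-04). In all of these except Sdhb the 4 YHY mice lay below the 4 Ctrl mice.

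In complex I, Ndufb6 had the largest fall (chosen after its values were seen, log2 fold change -1.66, SE 0.26, adjusted P = 7.5e-05). The core subunits Ndufs1 (log2 fold change -0.60, adjusted P = 0.00217) and Ndufv1 (-1.26, adjusted P = 1.8e-05) fell, as in Model. Ndufs3 (log2 fold change -0.59, adjusted P = 0.00648) and Ndufv2 (-0.80, adjusted P = 0.00579), not called in Model, fell here. The iron-sulfur subunits Ndufs7 (log2 fold change -0.34, adjusted P = 0.118) and Ndufs8 (-0.08, adjusted P = 0.718) were not called. Ndufs7 was called lower under scaling to library size alone, the set of 9 mice or removal of the GC trend (-0.77 to -0.38) and without Model 1 (-0.40), with adjusted P from 0.00742 to 0.398.

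In complex V the c ring genes Atp5g1 (log2 fold change -0.90, adjusted P = 0.0053), Atp5g2 (-0.65, adjusted P = 0.00347) and Atp5g3 (-1.63, adjusted P = 1.6e-04) all fell. The catalytic subunits Atp5a1 (log2 fold change -1.55, adjusted P = 2.5e-06) and Atp5b (-1.63, adjusted P = 1.8e-06) and the shaft subunit Atp5c1 (-1.04, adjusted P = 0.00341) fell as well. Atpif1 fell beside them (log2 fold change -1.11, adjusted P = 3.8e-04). Cox6b2 was the single rise among all members, from 3.03 ± 0.794 to 10.9 ± 5.60 CPM (log2 fold change 1.85, SE 0.31, adjusted P = 1.7e-04), YHY 4 having the highest level of the 12 mice.

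Around the chain, falls numbered 13 of 16 for assembly factors of complex I, 3 of 4 for complex II, 3 of 6 for complex III, 15 of 21 for complex IV and 3 of 4 for complex V, with 0 rises. Among all genes tested 24.2% fell and 26.1% rose. Of the carriers and entry points 12 of 17 fell and 0 rose, and of the citric acid cycle genes 12 of 12 fell. The biogenesis regulators had 5 rises and 4 falls among 14, a list too small to show a difference from those shares. The cytosolic ribosomal proteins had 2 rises and 54 falls among 77. Of the subunits of the mitochondrial genome 12 of 13 rose (median 1.78), and of the nuclear-retained RNAs 4 of 4.

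Side by side, the summed level of each complex was highest in Ctrl and lowest in YHY by group mean. For complex I it came to 6075 ± 868 in Ctrl, 5516 ± 1032 in Model and 4009 ± 747 in YHY CPM (mean ± SD, n = 4). For complex II it came to 1380.2 ± 109 in Ctrl, 893 ± 168 in Model and 619 ± 127 in YHY CPM, and for complex III 2495 ± 319 in Ctrl, 1899 ± 454 in Model and 1320.2 ± 299.6 in YHY CPM. For complex IV it came to 4640.3 ± 555 in Ctrl, 3525 ± 986 in Model and 2906 ± 719 in YHY CPM, and for complex V 8000.4 ± 539.6 in Ctrl, 4719.5 ± 965 in Model and 3470.2 ± 697 in YHY CPM. By mouse, complex V summed to 7604, 8641, 8249 and 7507 CPM in Ctrl, 6115, 4314, 4535 and 3914 in Model, and 3073, 2712, 3879 and 4218 in YHY. Every Ctrl mouse was above every db/db mouse in complex V. Model and YHY overlapped in every complex. In complexes I to IV, YHY 4 summed to 5061, 804, 1722 and 3764 CPM, above Model 4 at 4569.5, 735, 1470 and 2707 CPM. In complexes I, III and IV Model 1 lay inside the Ctrl range, at 6969, 2519 and 4951 CPM. Model 3 did so in complex I, at 5432 CPM.

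Pairs of isoforms show which version of a subunit the kidney transcribes, and levels within a pair are compared here per kilobase. Cox4i1, the general isoform of subunit IV, had 403 FPKM over the 12 mice and Cox4i2, the lung isoform, 1.83 FPKM. Cox4i1 measured 728, 955, 769 and 729 CPM in Ctrl, 838, 500.3, 513 and 381 in Model, and 439, 366, 585 and 702 in YHY and was not called by edgeR in any of the 3 comparisons, although every YHY mouse was below every Ctrl mouse. Against Ctrl, Cox4i1 in YHY was called lower under DESeq2, scaling to library size alone, no filter on low counts, fitting only the groups compared, the set of 9 mice or removal of the GC trend (-1.0038 to -0.61) and without Ctrl 4, Model 1, Model 4 or YHY 4 (-0.78 to -0.61), with adjusted P from 0.00834 to 0.139. Subunit VIb was represented by Cox6b1 at 575 FPKM and Cox6b2 at 7.38 FPKM. Cox6b1 measured 368, 468, 383 and 321 CPM in Ctrl, 621, 432, 454 and 403 in Model, and 311, 307, 345 and 469 in YHY, with overlap between all groups. Cox7a1 had 28.1 FPKM and Cox7a2 191 FPKM, and Cox7b 214 FPKM where Cox7b2 had 0. Not called in YHY against Ctrl, Cox7b was called lower under DESeq2, scaling to library size alone, no filter on low counts, fitting only the groups compared or the set of 9 mice (-0.90 to -0.50) and without Ctrl 4, Model 1 or YHY 4 (-0.63 to -0.56), with adjusted P from 0.0132 to 0.193. Ndufa4 had 148 FPKM and Ndufa4l2 4.20 FPKM.

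**Figure D3:**
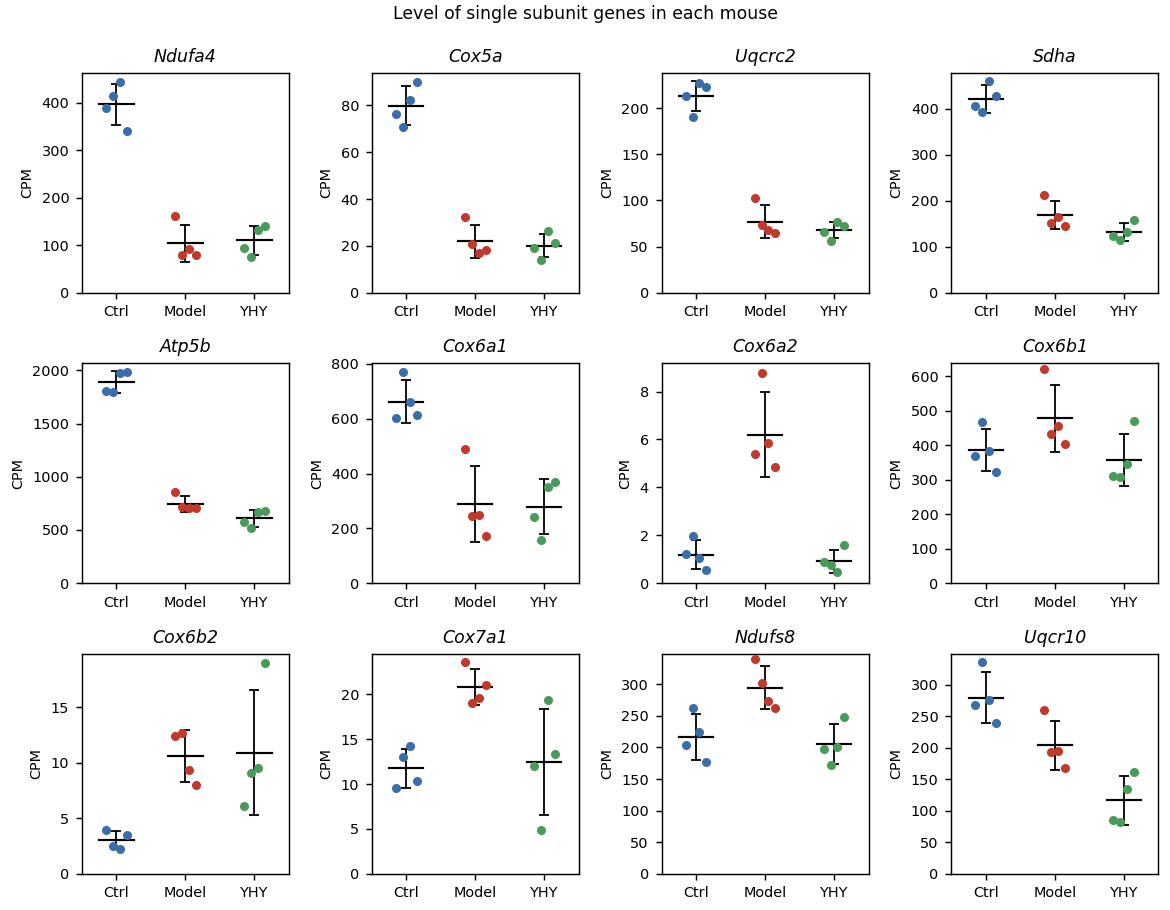
CPM (y axis) of 12 members in Ctrl, Model and YHY, with 4 mice per group as dots and the mean ± SD as a bar. Ndufa4, Cox5a, Uqcrc2, Sdha, Atp5b and Cox6a1 are highest in every Ctrl mouse, Cox6a2 is highest in every Model mouse, and Cox6b2 is lowest in every Ctrl mouse.

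The members share features that the symbol rule did not use. Their transcripts are short, with a median gene length of 1550.0 bases against 3788.0 for all genes tested, abundant, and of median GC content 52.5% against 50.6%. Within the members, the 28 that fell in Model had a median GC content of 50.1%, the 8 that rose 56.8% and the 47 not called 53.4%, and median lengths of 1868, 1062 and 1587 bases. Across the 83 members the fold change in Model had, on the log2 scale, a Spearman rho of 0.33 with GC content (Pearson r 0.30), beside 0.15 (0.08) over 16724 genes tested that have a GC value. With the mean count rho was -0.24 (r -0.45) in the members and -0.30 (-0.29) in all genes tested. These relations are across genes, which share libraries and are not independent replicates, and stand as description.

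Some members have near copies among pseudogenes, between which reads can be divided, so their values are less certain. Ndufa12-ps averaged 1605 counts per library beside 2886 for Ndufa12, an accessory subunit of complex I, and Ndufs5-ps 2273 beside 1228 for Ndufs5. Ndufa12-ps had 3922, 3897, 1141 and 3915 counts in Ctrl, 648, 1021, 203 and 1161 in Model, and 420, 163, 1207 and 1565 in YHY. Ndufs5-ps had 4007, 3242, 3781 and 3672 counts in Ctrl, 3266, 1088, 1472 and 1403 in Model, and 1241, 703, 1555 and 1842 in YHY. These counts are not scaled, and their part in the fold changes of the members was not tested.

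Kidney segments differ in how many mitochondria they hold, so marker lists of cell types are set beside the members. Markers of proximal tubule, loop, distal tubule, collecting duct, glomerulus and vessels were all found in every group. Beside the counts of these lists, 19.6% of all genes tested rose and 18.5% fell in Model relative to Ctrl. In YHY 26.1% rose and 24.2% fell relative to Ctrl, and 5.63% and 7.62% relative to Model. Of 10 proximal tubule genes, relative to Ctrl 1 rose and 4 fell in Model and 1 and 6 in YHY, and relative to Model 0 and 2 in YHY. Their summed level, led by the phosphate transporter Slc34a1, was 5851, 7017, 6084 and 5152 CPM in Ctrl, 4715, 4450.3, 4931 and 3843 in Model, and 2045, 3809.9, 2479 and 4954 in YHY. Model mice were below Ctrl mice, and YHY mice spread widely, with YHY 4 above every Model mouse and YHY 1 lowest of all. In Model, Slc7a13, a transporter of the straight segment, fell most (log2 fold change -2.33, adjusted P = 2.7e-05), then Lrp2, the endocytic receptor megalin (-1.68, adjusted P = 4.0e-04), and the water channel Aqp1 (-0.94, adjusted P = 0.0162). The call of Aqp1 was lost without Ctrl 4 (log2 fold change -0.78), with adjusted P from 0.00112 to 0.0527.

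Of 4 genes of the thick ascending limb, relative to Ctrl 0 rose and 3 fell in Model and 0 and 3 in YHY, and relative to Model 0 and 0 in YHY. Their sum, led by the transporter Slc12a1, was 1969, 1102, 2240.2 and 2364 CPM in Ctrl, 1159.8, 917, 745 and 1111 in Model, and 1328, 866, 2133 and 1214 in YHY. Of 4 genes of the distal convoluted tubule, led by Slc12a3, relative to Ctrl 2 rose and 0 fell in Model and 2 and 1 in YHY, and relative to Model 0 and 1 in YHY. Their sum was 362, 558, 316 and 316 CPM in Ctrl, 753, 689.8, 728 and 719 in Model, and 454, 811, 399.8 and 493 in YHY, with every Model mouse above every Ctrl mouse. Of 4 genes of collecting duct principal cells, led by Aqp2, relative to Ctrl 0 rose and 2 fell in Model and 0 and 2 in YHY, and relative to Model 0 and 0 in YHY. Their sum was 832, 476, 551 and 1337 CPM in Ctrl, 463, 278, 341 and 349 in Model, and 657, 197, 330 and 176 in YHY, with Ctrl 4 far above the rest and every Model mouse below every Ctrl mouse. Markers of segments differed between mice as well as between groups, and their part in the levels of the members was not tested.

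For genes of intercalated cells (led by Atp6v1g3), podocytes (Podxl), endothelium (Emcn), mesenchyme (Acta2) and immune cells (C1qa), of which 5, 6, 5, 5 and 5 were tested, 0, 2, 1, 2 and 1 rose and 1, 0, 0, 0 and 1 fell in Model relative to Ctrl, and 0, 3, 1, 2 and 1 rose and 1, 1, 0, 0 and 1 fell in YHY relative to Ctrl. Relative to Model 0 of them rose and 1, 0, 0, 0 and 0 fell in YHY.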

How the data were processed

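The deposited raw counts per gene, from which all values here come, were used as given. The authors' processing notes list FastQC 0.11.9, Trimmomatic 0.39, HISAT2 2.2.1, SAMtools 1.12, featureCounts 2.0.1 and GRCm39; the strand setting is not given in the sources used here. The 12 per-mouse columns of the comparison tables were not used; those tables hold fold changes and P values and the KEGG tables pathway enrichments, likewise not used. Genes passing filterByExpr were fitted with edgeR 4.0.16 (TMM, quasi-likelihood, 3 groups) in R 4.3.3, with DESeq2 1.42.0 as an alternative, and tables and figures were made in Python 3.11.15 (pandas 2.3.3, scipy 1.17.1, matplotlib 3.10.9). The code was tested on simulated data.

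Named were the core subunits, isoform pairs, Atpif1, the 3 called members with the largest change per direction and comparison among those of mean count 50 or more whose groups do not overlap, and the 2 highest and 2 lowest in FPKM per complex (for levels only); by the same rule, genes in Model against Ctrl from the lists of assembly factors of complexes I and IV, carriers, regulators, citric acid cycle, mitochondrial subunits, nuclear-retained RNA and proximal tubule; and members marked as chosen after their values were seen. Some genes this rule names are not reported here. Members and lists were chosen with earlier results of these data known. Alternatives were other scalings and filters, DESeq2, only the groups compared, 9 mice (Ctrl 1, 3 and 4, Model 2, 3 and 4, YHY 1, 2 and 3, which an earlier reading of the deposited comparison tables pointed to), a replicate block, removed trends on gene length and GC content, and each mouse left out.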

Additional observations from a re-analysis of the deposited data

Results flagged for a closer look

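In 18 of 273 groups of 4 mice a single mouse lay far from the other 3 by Dixon's test, and chance does this in about 1 in 20 groups (5%). Cox8a was 488.5 CPM in Model 1, against 297.1 to 326.8 in the other 3 mice of its group. In Model 1, Ndufa4 stood at 162.4 CPM, where the others of the group had 80.5 to 93.08. For Atp5a1 the far value was 759.3 CPM in Model 1, the others having 582.7 to 609.2. Atp5b was 859.7 CPM in Model 1, against 702.2 to 712.6 in the other 3 mice of its group. In Model 3, Acad9 stood at 11.33 CPM, where the others of the group had 9.174 to 9.278. For Gabpa the far value was 30.69 CPM in YHY 4, the others having 15.78 to 17.4. mt-Nd5 was 12785.4 CPM in Ctrl 2, against 8312.8 to 8595.8 in the other 3 mice of its group. In Ctrl 2, mt-Co1 stood at 51482.1 CPM, where the others of the group had 35464.4 to 38045.1. For Suclg1 the far value was 116.4 CPM in Model 1, the others having 61.14 to 69.93. Ndufa11 was 126.4 CPM in Ctrl 2, against 82.06 to 85.4 in the other 3 mice of its group. In Ctrl 2, Ndufb7 stood at 238.7 CPM, where the others of the group had 160.1 to 172.5. For Atp5d the far value was 630.2 CPM in Ctrl 2, the others having 500.6 to 506.2. In Ctrl 2, the share of counts on the mitochondrial genome was 22.71 percent, against 18.4 to 18.56 percent. In YHY 2, the share of counts on the mitochondrial genome was 64.6 percent, against 53.84 to 54.56 percent. In Ctrl 2, the same share among protein-coding genes was 22.71 percent, against 18.19 to 18.43 percent. In YHY 2, the same share among protein-coding genes was 65.56 percent, against 54.69 to 55.29 percent. In Model 1, the share of counts on the members was 2.261 percent, against 1.196 to 1.352 percent. In Ctrl 2, the summed level of subunits of the mitochondrial genome was 204052.0 CPM, against 133054.0 to 143918.2 CPM.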

How the results depend on the processing

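Of the 38 tested members that the rule names for fold changes, 25 were called in Model against Ctrl, 6 in YHY against Model and 27 in YHY against Ctrl, and 20, 1 and 27 of these kept their call and sign under every alternative. Over 2622 of their values, 2430 kept their side of the threshold and sign, 81 lost a call, 60 gained one and 51 uncalled ones changed sign. For genes of other lists the numbers were 721 kept, 13 lost and 2 changed in sign of 736, and for fold changes picked after their values were seen 235 kept and 87 lost of 322. The cause of these changes was not tested.

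With library size alone the median of the members was -0.69 in Model against Ctrl, where 2 members were higher (2.41%, all genes 8.87%) and 46 lower (55.4%, all genes 32.5%), and -1.15 in YHY against Ctrl, and 3 members were lower in YHY against Model (3.61%, all genes 3.94%). Removal of the GC trend, chosen after seeing the data, left 4 higher in Model against Ctrl (4.82%, all genes 18.4%). In YHY against Model, 27 were lower in DESeq2 (32.5%, all genes 9.68%), 4 with only the groups compared in the fit (4.82%, all genes 4.2%) and 46 at a fold over 1.2 and an unadjusted P under 0.05 (all genes 14.7%). With each mouse left out in turn, members higher in Model against Ctrl numbered 4 to 9, members lower 21 to 40, members lower in YHY against Model 3 to 31 and in YHY against Ctrl 48 to 61, where of all genes 14.1 to 20.3%, 14.4 to 20.9%, 4.02 to 9.46% and 22.3 to 25.7% were called in turn.

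Uncalled log2 fold changes took the opposite sign in these cases. Removal of the gene length trend gave 0.0389 for Atpif1, 0.0347 for Cox4i1 and 0.12 for Cox6a1 in YHY against Model and 0.0493 for Ndufs8 in YHY against Ctrl. The set of 9 mice gave -0.0060 for Cox5b in Model against Ctrl and 0.0160 for Cox4i1, 0.12 for Cox5a, 0.19 for Cox6a1 and -0.27 for Cox6b2 in YHY against Model. Scaling to library size alone gave -0.0807 for Cox4i2, -0.26 for Cox5b, -0.0880 for Cox6b1, -0.18 for Ndufa4l2 and -0.25 for Sdhb in Model against Ctrl and -0.27 for Cox7a1 in YHY against Ctrl. Upper-quartile scaling gave 0.0596 for Cox7b and 0.0309 for Ndufs7 in Model against Ctrl and 0.0109 for Cox6b1 and 0.0394 for Ndufs8 in YHY against Ctrl. Removal of the GC trend gave 0.12 for Cox7b and -0.0191 for Ndufa4l2 in Model against Ctrl.

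With each mouse left out in turn, the ranges of those whose sign changed were: in YHY against Model -0.31 to 0.0139 for Atpif1, -0.46 to 0.0678 for Atp5c1, -0.27 to 0.17 for Cox4i1, -0.19 to 0.39 for Cox4i2, -0.28 to 0.13 for Cox5a, -0.23 to 0.34 for Cox6a1, -0.37 to 0.24 for Cox6b2, -0.35 to 0.0078 for Cox7a2, -0.0381 to 0.20 for Cox7a2l and -0.0569 to 0.38 for Ndufa4. In Model against Ctrl -0.12 to 0.25 for Cox5b, -0.35 to 0.0563 for Cox7b, -0.28 to 0.0333 for Ndufs7 and -0.0286 to 0.26 for Sdhb. In YHY against Ctrl -0.22 to 0.34 for Cox7a1 and -0.23 to 0.0193 for Ndufs8.

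Mice share replicate numbers across groups, but only 2 of 12 same-numbered pairs had a correlation over 0.1, so the numbers were not taken as pairs. A block on them gave 11 members lower in YHY against Model and -0.0307 for Cox6b2 in YHY against Model.

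With 4 mice per group, bulk tissue and 1 time point, changes in cell mixture, in RNA per cell and in the mitochondrial share of the library cannot be told apart, and no protein or respiration was measured here. TMM holds the bulk of genes level, while library size alone counts the mitochondrial RNA into the scale. Between mice of a group the chi-square per degree of freedom was 17.33 to 138.9, so the spread between libraries was wider than counting error, and low isoforms such as Cox6a2 rest on few counts.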
